A study of Mus musculus with 28 samples.

Results

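The 10 genes described here are the cyclins, kinases and inhibitors that act in the G1 phase of the cell cycle, together with Myc. They are Ccnd1, Ccnd2, Ccnd3, Ccne1, Ccne2, Cdk4, Cdk6, Cdkn1b, Cdkn2c and Myc. Their probes were found by the RefSeq accession that the array files give for each spot, which gave 14 probes for the 10 genes, out of 55681 distinct probes and 20660 gene symbols on the array. Ccnd3 and Ccne1 had 2 probes each and Cdk4 had 3. The livers came from male B6C3F1 mice labelled as 42 days old and had been kept as formalin-fixed, paraffin-embedded blocks for 16 years. For about 4 weeks 3 mice drank water with 0.05% phenobarbital, a sedative drug that turns on the nuclear receptor CAR in hepatocytes, and 3 mice drank plain water. The 6 livers were read in 4 sets of 1 slide each, on one-colour arrays with 1X or 1.5X cDNA and on two-colour arrays with either amount. All groups share strain, sex, age label, block age and amplification of the RNA as cDNA, and the mouse was the replicate (n = 3 per group).

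D-type cyclins bind CDK4 and CDK6 when growth signals reach a resting cell, and these kinases then phosphorylate the retinoblastoma protein. That step releases E2F factors, which switch on cyclin E and the genes of DNA replication. The inhibitor encoded by Cdkn2c (p18-INK4c) binds CDK4 and CDK6, the inhibitor encoded by Cdkn1b (p27-KIP1) acts mainly on CDK2 with cyclin E, and MYC raises several of these genes. The adult liver is largely quiescent, and cyclin D1 is the cyclin best known for its rise in hepatocytes that re-enter the cycle.

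The arrays carried clear marks of the labelled exposure and tissue. Over both one-colour inputs, Cyp2b10, the classical CAR target, was not well above background on any control array and was at least 23.1-fold higher in exposed livers, a bound set by the lowest signal called well above background. The log2 differences of Cyp2c55, Gstm3, Por and Gadd45b were between 2.33 and 3.73, and all 5 passed the test. All 8 hepatocyte markers were detected, and none of them passed the test over both one-colour inputs. The share of probes well above background ran from 44.1% to 51.9% per array in the one-colour 1X set and from 28.1% to 38.5% at 1.5X. In the two-colour sets it ran from 21.9% to 31.5% (Cy3) and 14.8% to 23.1% (Cy5) at 1X, and from 34.3% to 42.8% (Cy3) and 2.97% to 7.41% (Cy5) at 1.5X. All 9 pancreas genes of a marker list were also measured, with a summed relative signal of 125 to 461 in control and 82.3 to 464 in exposed livers.

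Of the 14 member probes, 8 were well above background on all 12 one-colour arrays, and they represent Ccnd1, Ccnd2, Ccnd3, Cdk4, Cdkn1b and Cdkn2c. The single probes of Ccne2 and Cdk6 and both probes of Ccne1 were not well above background on any array of any set. The Myc probe and the third Cdk4 probe (A_55_P2166639) were dim and were detected on some arrays only. In the two-colour 1X set 3 member probes were detected in every channel, and in the two-colour 1.5X set none was. At that input the members were well above background in 63 of 112 Cy3 values and in 0 of 112 Cy5 values.

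**Figure D1:**
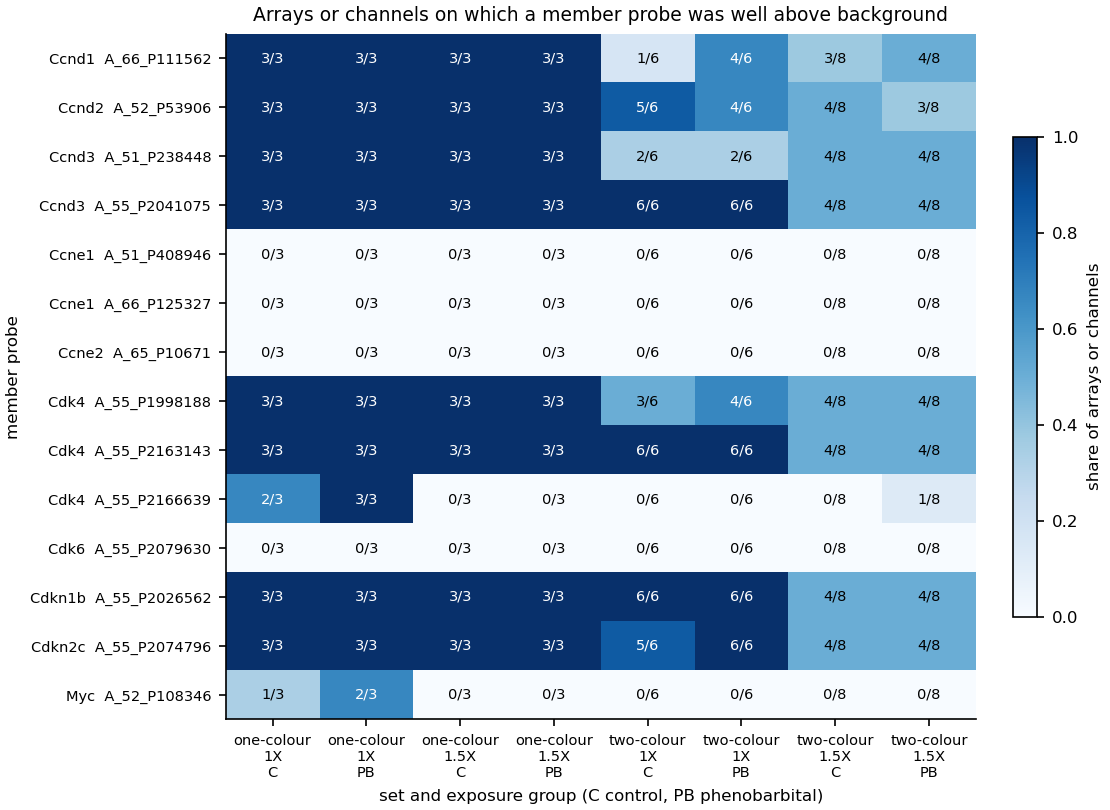
Each cell gives the number of arrays (one-colour) or dye channels (two-colour) on which a member probe was well above background, out of those of its exposure group; darker blue is a larger share. Probes of Ccne1, Ccne2 and Cdk6 stand at 0 throughout, and in the two-colour 1.5X set the other detected members reach at most 4 of 8 channels.

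Over both one-colour inputs, where each mouse is the mean of its 2 arrays, Cdkn2c and Ccnd1 had the largest log2 differences of the members tested, at 1.03 ± 0.26 (SE, n = 3 per group) and 0.96 ± 0.26. The main Cdk4 probe was 0.41 ± 0.18 higher, and Ccnd2, Ccnd3 and Cdkn1b lay between -0.15 and 0.19. With limma and Benjamini-Hochberg adjustment over all 16286 probes tested, 0 of the 8 member probes tested passed the threshold of 0.05, against 0.749% of all probes tested. At an unadjusted p under 0.05 there were 2 of the 8, against 13.5% of all. The groups did not overlap for 3 of the 8, all higher in exposed livers. Of all probes tested, 18.9% had no overlap in either direction and 8.74% were higher without overlap. The median log2 difference of the 8 member probes was 0.26, beside -0.03 over all probes tested. In bulk liver, a change in the number of cells of a type and a change in RNA per cell cannot be told apart.

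In the two-colour 1X set, 4 member probes could be tested, and Cdkn2c and Cdk4 were called higher in exposed livers. These are 2 of the 4, against 6.43% called in either direction and 3.28% called higher among all 10030 probes tested. At an unadjusted p under 0.05 there were 3 of the 4, against 24.5% of all. Cdkn2c entered the test only through the exposed group, so these counts are not read against the background. Among the 3 probes detected in every channel of both groups, Cdk4 was the 1 called. Both calls rest on the mouse numbers in the sample descriptions. The source names of the same channels give other mouse numbers on 4 of the 6 arrays used, and with those the adjusted p (limma, Benjamini-Hochberg) was 0.0861 for Cdkn2c and 0.231 for Cdk4. The exposure of each channel is the same under both labels.

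Ccnd1 encodes cyclin D1, which links growth signals to CDK4. At 1X its relative signal, scaled so that the array's 75th percentile of detected probes is 1, was 0.135, 0.105 and 0.0686 in control mice 1 to 3 and 0.258, 0.215 and 0.132 in exposed mice 1 to 3. Exposed mouse 3 lay just below control mouse 1, so the groups overlapped at this input. At 1.5X the control mice stood at 0.121, 0.126 and 0.122 and the exposed mice at 0.302, 0.256 and 0.171. There the 3 control mice lay close together and all 3 exposed mice lay above them. The log2 difference was 0.97 ± 0.34 (SE, n = 3 per group) at 1X with an adjusted p of 0.470 (limma), and 0.94 ± 0.23 at 1.5X with an adjusted p of 0.168. Over both inputs the adjusted p was 0.172 and the 95% confidence interval of the log2 difference ran from 0.36 to 1.55. In a limma fit to all 12 one-colour arrays with the mouse as a random block, the same difference had an adjusted p of 0.0458, past the threshold. That fit counts repeated arrays of the same livers, and it called 483 probes where the fit by mouse called 122.

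The Ccnd1 probe on two-colour 1X arrays was well above background in 1 of 6 control and 4 of 6 exposed channels and could not be tested. Its normalized intensities there were 92.0, 89.6 and 91.7 in control mice and 122.8, 113.6 and 99.0 in exposed mice. The exposed readings lay above the control readings, but the controls were mostly not well above background, so no difference is given. In the two-colour 1.5X set the values were 97.3, 85.1 and 87.7 against 97.3, 94.5 and 80.6, and the groups overlapped. In all 4 sets exposed mouse 1 had the highest and exposed mouse 3 the lowest Ccnd1 value of the exposed group. These are repeated measurements of the same 3 livers and not further replicates.

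Ccnd2 encodes cyclin D2, another partner of CDK4 and CDK6. At 1X it stood at 0.191, 0.304 and 0.354 in control mice and at 0.353, 0.445 and 0.233 in exposed mice. At 1.5X the controls were at 0.131, 0.224 and 0.188 and the exposed mice at 0.150, 0.111 and 0.154. The groups overlapped at both inputs, and the log2 difference changed sign from 0.28 ± 0.32 at 1X to -0.37 ± 0.25 at 1.5X (SE, n = 3 per group). The mean over both inputs was -0.05, with a 95% confidence interval from -0.57 to 0.48.

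Ccnd3 encodes cyclin D3, and its 2 probes represent different RefSeq transcripts of the gene. The brighter probe (A_55_P2041075) read 0.879, 0.894 and 1.06 in control and 0.907, 0.864 and 1.25 in exposed mice at 1X. At 1.5X it read 0.421, 0.466 and 0.420 in control and 0.431, 0.595 and 0.593 in exposed mice. Exposed and control values overlapped at both inputs, with a log2 difference over both of 0.19 ± 0.17 (SE, n = 3 per group) and an adjusted p (limma) of 0.671. On two-colour 1X arrays the same probe stood at 207.2, 189.4 and 216.0 in control mice and at 223.4, 238.9 and 236.5 in exposed mice. The groups did not overlap there and differed by 0.19 ± 0.08 on the log2 scale, with an adjusted p (limma) of 0.182. The other probe (A_51_P238448) differed by 0.23 at 1X and by -0.46 at 1.5X, with overlapping groups at each input, so the 2 Ccnd3 probes had opposite signs at 1.5X.

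**Figure D2:**
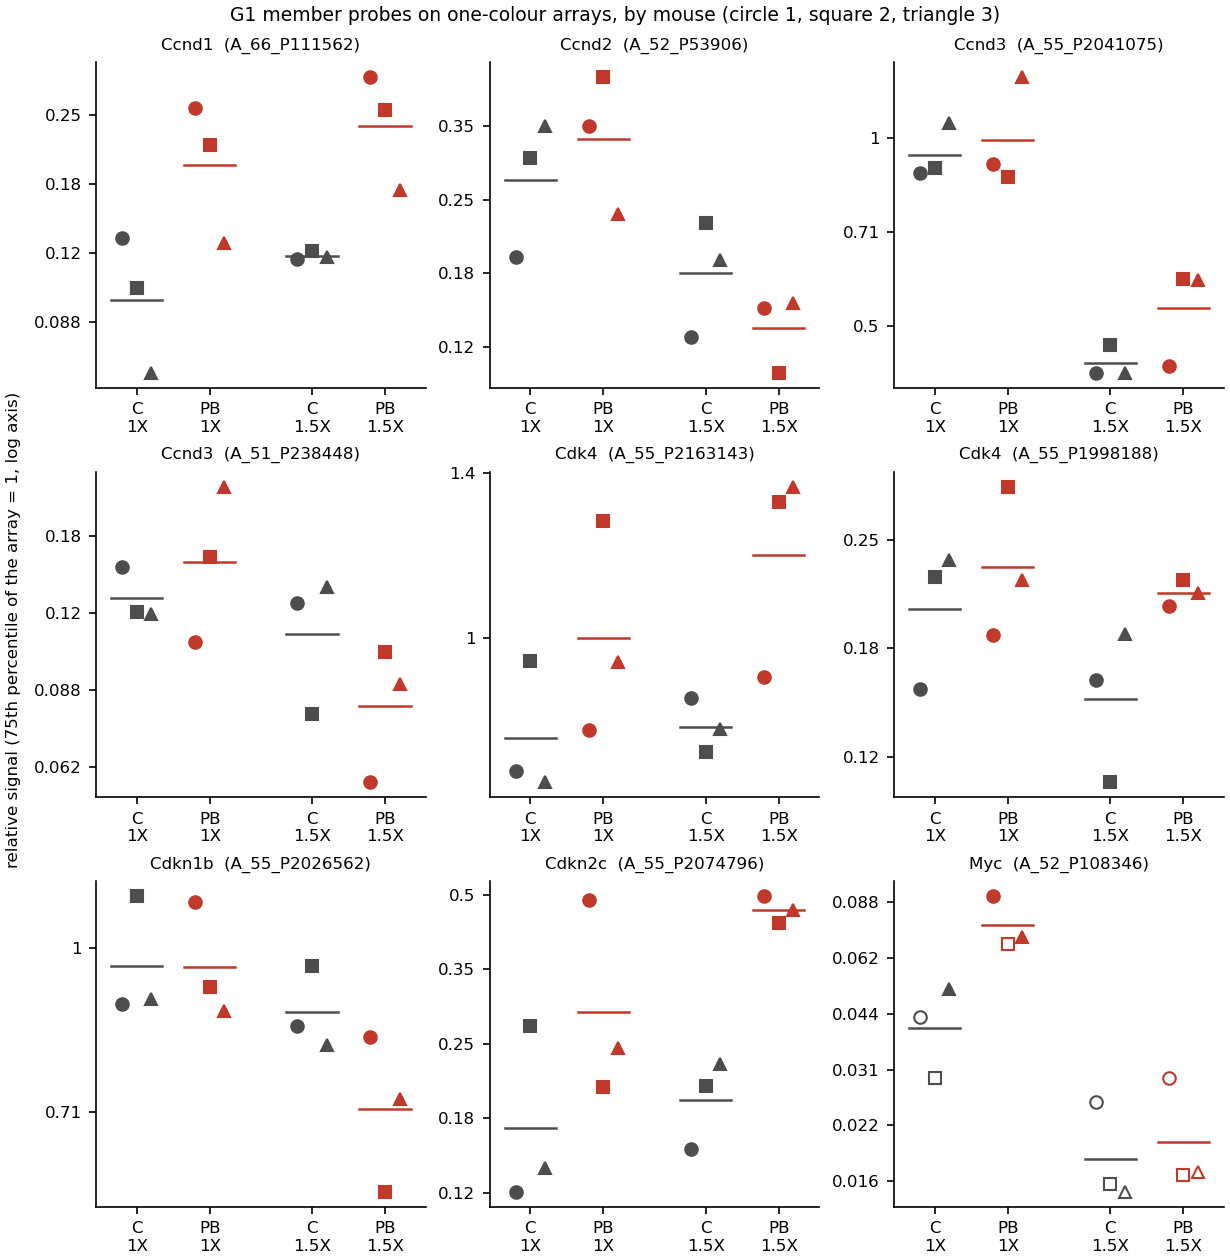
Relative signal (log axis) of 9 member probes in each mouse at 1X and at 1.5X cDNA input; grey is control (C), red is phenobarbital (PB), bars are geometric means of 3 mice, and open symbols were not well above background. The exposed mice lie above all control mice at 1.5X for Ccnd1, Cdkn2c and both Cdk4 probes plotted, while those of Ccnd2, Ccnd3 and Cdkn1b mix with the controls.

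Ccne1 and Ccne2 encode the E-type cyclins, which activate CDK2 at the entry to S phase. Neither was detected in any of the 4 sets, and no fold is given for them. Cdk6, which shares its partners with Cdk4, was likewise undetected, and its relative signal on the one-colour arrays was at most 0.0138.

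Cdk4 encodes the kinase of the D-type cyclins. Its brightest probe (A_55_P2163143) read 0.758, 0.954 and 0.740 in control mice and 0.825, 1.28 and 0.953 in exposed mice at 1X. At 1.5X the controls stood at 0.882, 0.788 and 0.827 and the exposed mice at 0.923, 1.33 and 1.37. The groups overlapped at 1X but not at 1.5X, where exposed mouse 1 lay just above the highest control. The log2 difference was 0.30 ± 0.24 (SE, n = 3 per group) at 1X, 0.52 ± 0.20 at 1.5X and 0.41 ± 0.18 over both, with an adjusted p (limma) of 0.388 over both.

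This Cdk4 probe in the two-colour 1X set stood at 269.2, 260.3 and 243.8 in control mice and at 315.9, 313.8 and 357.1 in exposed mice. All 3 exposed mice lay above the controls, and the log2 difference of 0.35 ± 0.08 (SE, n = 3 per group) had an adjusted p (limma) of 0.0446. In Cy3 alone the groups stayed apart, at log2 intensities of 8.03 to 8.08 and 8.27 to 8.53. In Cy5 alone they overlapped, since exposed mouse 2 at 8.06 lay below control mouse 1 at 8.08. The call was lost in each of the 6 fits that left out 1 mouse, where the adjusted p (limma) ran from 0.0573 to 0.156. Markers of other cells in these groups are given after the inhibitors.

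The second Cdk4 probe (A_55_P1998188) differed by 0.34 ± 0.18 (SE, n = 3 per group) over both one-colour inputs, with an adjusted p (limma) of 0.472. It overlapped between groups at 1X, where its log2 difference was 0.19, and did not at 1.5X, where it was 0.49. The third, dim probe could be tested at 1X only, because it was well above background in all 3 exposed mice and in 2 of 3 controls. It read 0.0502, 0.0473 and 0.0424 in control and 0.0662, 0.102 and 0.113 in exposed mice there, a log2 difference of 0.98 ± 0.25 with an adjusted p (limma) of 0.289. That filter admitted the third probe only through the exposed group, and its difference is no support for the other 2 probes, whose groups overlapped at 1X. None of the 3 Cdk4 probes passed the test on one-colour arrays.

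The RefSeq table of promoters (assembly GRCm38.p6) held sequences for 6 of the 10 genes, and those of the called pair are shown because they differ in the motifs they hold. Each is the 250 bases before a RefSeq start, 5′ to 3′ on the gene's strand, with capitals for CACGTG (the E-box that MYC with MAX can bind) and for GGGCGG or its reverse complement CCGCCC (a GC box). The Cdk4 stretch is chr10:127063285-127063534 on the plus strand, and the Cdkn2c stretch is chr4:109666757-109667006 on the minus strand, at the upstream of 2 listed starts.
Cdk4: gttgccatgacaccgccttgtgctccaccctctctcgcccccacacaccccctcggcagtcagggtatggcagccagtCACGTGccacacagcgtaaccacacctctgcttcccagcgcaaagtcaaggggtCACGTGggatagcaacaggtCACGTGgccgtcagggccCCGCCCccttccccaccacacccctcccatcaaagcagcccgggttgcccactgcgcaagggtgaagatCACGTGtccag
Cdkn2c: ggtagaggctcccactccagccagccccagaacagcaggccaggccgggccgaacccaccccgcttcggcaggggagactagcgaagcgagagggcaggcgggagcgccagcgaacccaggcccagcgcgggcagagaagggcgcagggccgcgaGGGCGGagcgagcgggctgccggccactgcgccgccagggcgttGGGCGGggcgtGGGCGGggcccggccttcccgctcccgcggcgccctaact
The Cdk4 stretch holds 4 E-boxes and 1 GC box. The Cdkn2c stretch holds 3 GC boxes and no E-box, and the stretch at its other listed start holds neither motif. Of all 32851 promoter stretches of the same length in the table, 6.02% hold an E-box and 0.0213% hold 4 or more, while 32.7% hold a GC box. Neither of the stretches shown matched CCAAT or any of 4 spellings of an E2F site (TTTCGCGC, TTTGGCGC, TTTCCCGC and TTTGCCGC, both strands). These matches describe the letters of the reference sequence, and binding was not measured here.

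Cdkn1b encodes p27-KIP1, an inhibitor that is abundant in resting cells. Its probe read 0.888, 1.12 and 0.899 in control mice and 1.10, 0.922 and 0.875 in exposed mice at 1X. At 1.5X it read 0.849, 0.963 and 0.815 in control and 0.829, 0.598 and 0.728 in exposed mice. The groups overlapped in each set in which the probe was tested. The log2 difference was -0.15 ± 0.17 (SE, n = 3 per group) on one-colour arrays of both inputs, with an adjusted p (limma) of 0.745. It was -0.11 ± 0.09 on two-colour 1X arrays, with an adjusted p (limma) of 0.491. The 95% confidence interval in the two-colour 1X set ran from -0.31 to 0.09.

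Cdkn2c encodes p18-INK4c, which keeps CDK4 and CDK6 from binding D-type cyclins. At 1X its relative signal was 0.125, 0.272 and 0.140 in control mice and 0.488, 0.204 and 0.245 in exposed mice. Control mouse 2 lay above exposed mice 2 and 3, so the groups overlapped. At 1.5X the control mice stood at 0.153, 0.205 and 0.227 and the exposed mice at 0.497, 0.438 and 0.466, with no overlap. The log2 difference was 0.78 ± 0.41 (SE, n = 3 per group) at 1X with an adjusted p (limma) of 0.661. At 1.5X it was 1.28 ± 0.20 with an adjusted p (limma) of 0.0630, the lowest of any member on one-colour arrays. Over both inputs the difference of 1.03 had an adjusted p (limma) of 0.148 and a 95% confidence interval from 0.42 to 1.64. With normexp background correction and quantile normalization, the 1.5X difference was 1.09 with an adjusted p (limma) of 0.0167, past the threshold.

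On the two-colour 1X arrays Cdkn2c stood at 107.8, 109.5 and 120.5 in control mice and at 165.4, 155.4 and 146.5 in exposed mice. The exposed mice all lay above the controls, by 0.47 ± 0.08 on the log2 scale (SE, n = 3 per group), with an adjusted p (limma) of 0.0134. The probe was well above background in 5 of 6 control and 6 of 6 exposed channels, so it entered the test through the exposed group. In log2 intensity the controls were at 6.69 to 6.95 in Cy3 and 6.68 to 6.88 in Cy5, and the exposed mice at 7.29 to 7.53 and 7.10 to 7.27. The groups were thus apart in each dye, although neither dye alone passed the test, with adjusted p-values (limma) of 0.0722 for Cy3 and 0.278 for Cy5. The call held in 3 of the 6 fits that left out 1 mouse, with adjusted p-values from 0.0103 to 0.0650; it was lost without control mouse 2, exposed mouse 1 or exposed mouse 2. In the two-colour 1.5X set, where it could not be tested, the values were 97.2, 105.3 and 94.5 against 113.0, 112.1 and 102.2, which overlapped.

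**Figure D3:**
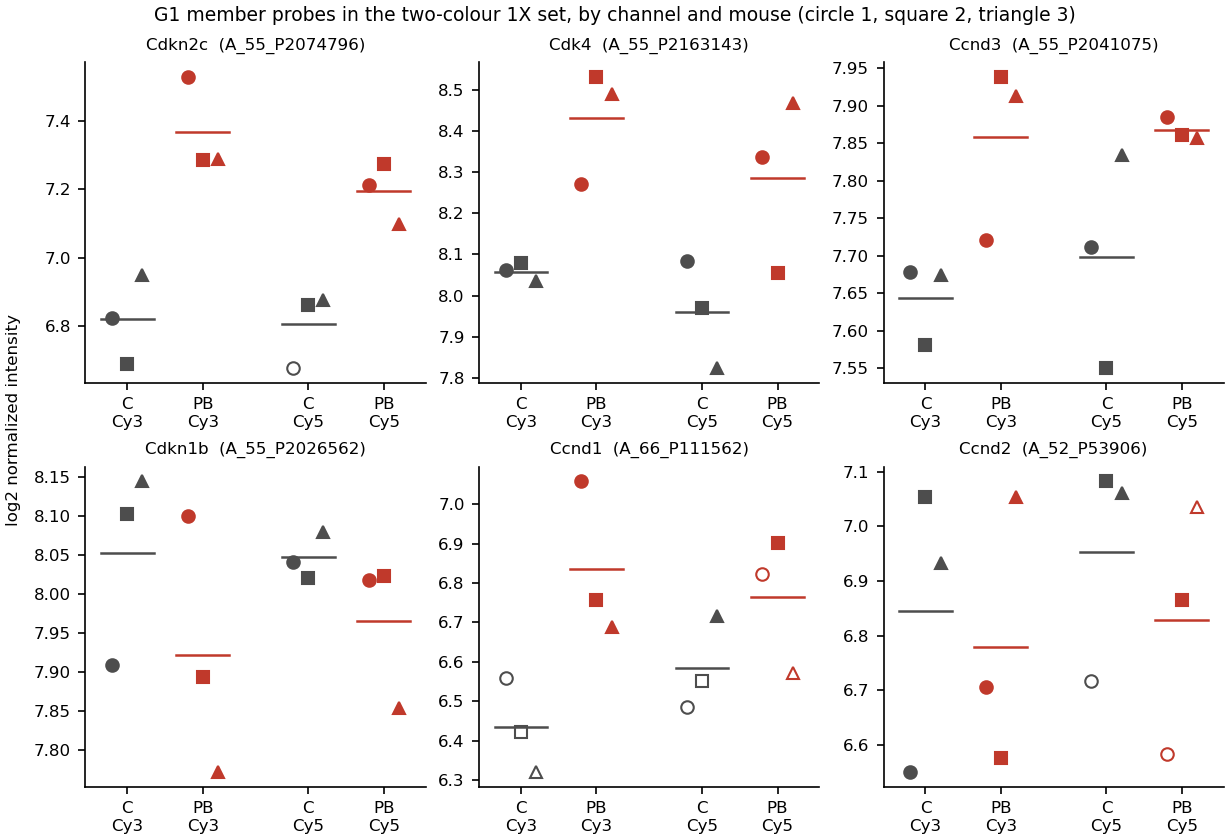
Log2 normalized intensity of 6 member probes in the two-colour 1X set, by dye and mouse; grey is control (C), red is phenobarbital (PB), bars are means of 3 mice, and open symbols were not well above background. Cdkn2c separates the groups in Cy3 and in Cy5, and Cdk4 in Cy3 only; the vertical axes differ between panels.

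Summed signals of some other cell types did not overlap between the same groups. No gene of any marker list but that of hepatocytes was called in any set. In the neutrophil list, 1 of 6 genes with a probe was tested over both one-colour inputs, S100a9, with a log2 difference of 2.08, and S100a8 and Mpo were below background on all arrays. The summed neutrophil signal was 0.0981 to 0.145 in control and 0.183 to 0.679 in exposed livers, without overlap. The list of T, B and NK cells had 3 of 9 genes tested, with summed signals of 0.810 to 1.20 and 1.08 to 1.64, which overlapped. The hepatocyte markers Alb and Ttr were, in the two-colour 1X set, called lower, at log2 differences of -0.39 and -0.62. In that set the summed normalized intensity of stellate cell and fibroblast markers was 4021 to 4673 in control and 4929 to 5526 in exposed livers, and that of endothelial markers was 1299 to 1314 and 1104 to 1266. Kupffer cell markers summed to 1495 to 1620 and 1629 to 1705. None of these 3 sums overlapped between the groups on two-colour 1X arrays, and neither did the hepatocyte sum (116583 to 120907 and 103345 to 104304). Over both one-colour inputs the hepatocyte sum overlapped (381 to 444 and 340 to 432). The neutrophil sum overlapped on two-colour 1X arrays (400.0 to 431 and 402 to 478). No neutrophil gene was tested there and 4 of 6 were detected in no channel, so nothing is read from that overlap. Sums of cholangiocyte markers (617 to 798 and 748 to 795) and red cell markers (944 to 1293 and 1087 to 1123) overlapped in that set too. Over both one-colour inputs the same 3 sums overlapped, at 17.8 to 22.5 and 21.7 to 26.0 for stellate cells and fibroblasts, 3.46 to 4.03 and 2.87 to 3.58 for endothelium, and 4.13 to 5.08 and 4.75 to 6.53 for Kupffer cells. The part of all these cells in the differences of Cdkn2c, Cdk4 and Ccnd1 was not tested.

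Myc encodes a transcription factor of cell growth, and its probe was placed on the array as 2 spots. At 1X it read 0.0432, 0.0296 and 0.0515 in control and 0.0917, 0.0683 and 0.0712 in exposed mice, and only control mouse 3 and exposed mice 1 and 3 were well above background. The 3 exposed readings lay above the control readings there, but the probe was below background in all other sets and was not tested in any. At 1.5X its readings of 0.0146 to 0.0255 in control and 0.0162 to 0.0297 in exposed mice overlapped. No fold is given for Myc, since neither group was measured on all arrays.

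**Figure D4:**
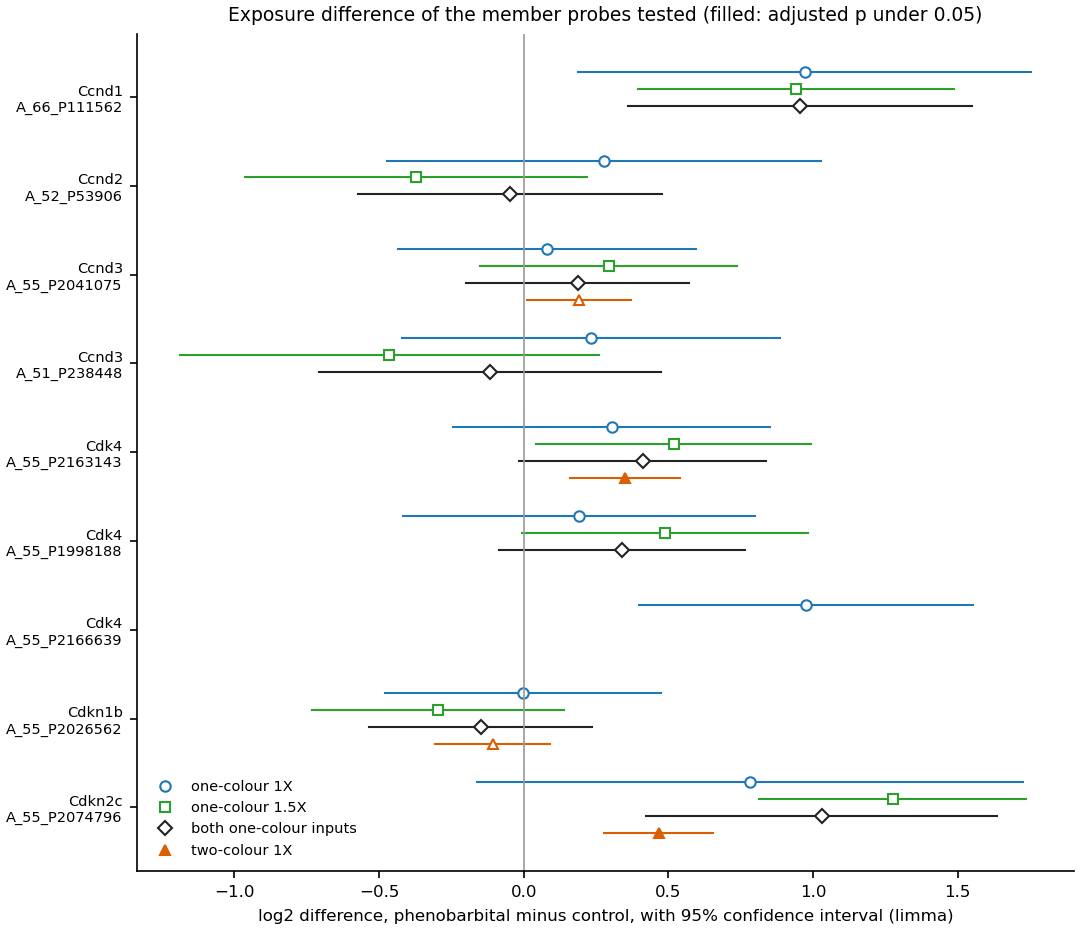
Log2 difference (phenobarbital minus control) of the 9 member probes tested in any set, with 95% confidence intervals from limma over 3 against 3 mice; symbols mark the set and filled symbols have an adjusted p under 0.05. The filled symbols are Cdk4 at 0.35 and Cdkn2c at 0.47 in the two-colour 1X set; Ccnd1 is near 1 in both one-colour sets, where its symbols are open.

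In the one-colour 1X set alone, 0 of the 9 member probes tested passed the test, against 0.138% of all 24594, and 2 of the 9 had an unadjusted p under 0.05, against 8.75% of all. Without overlap there was 1 of the 9, the dim Cdk4 probe, which was higher, against 14.2% of all in either direction and 7.38% higher. It was in the test only through the exposed group, so nothing is read from these 1X counts. In the 1.5X set 0 of 8 passed, against 0.263% of all 16742, and 3 of 8 had an unadjusted p under 0.05, against 14.7% of all. There 4 of the 8 did not overlap, all higher in exposed livers, against 20.6% of all in either direction and 8.92% higher. The 4 are the probes of Ccnd1 and Cdkn2c and 2 probes of the same gene, Cdk4. On two-colour 1X arrays 3 of 4 did not overlap, all higher, against 32.7% of all in either direction and 15.5% higher. Cdkn2c, which entered through the exposed group, is among the 3, and the other 2 are Cdk4 and Ccnd3. In the two-colour 1.5X set 0 member probes passed the filter on dim signals, and of the 1821 probes tested there 0% were called (0 by limma, with 35 or 1.92% at an unadjusted p under 0.05).

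Whether the exposure difference itself changed with the input was tested within mice. Each input was on its own slide, so input and slide cannot be told apart. None of the 8 member probes passed (limma, lowest adjusted p 0.859, and 1 at an unadjusted p under 0.05), against 0% of all probes, of which 5.54% had an unadjusted p under 0.05. That probe was the dimmer of Ccnd3, whose difference changed from 1X to 1.5X by -0.70 ± 0.28 (SE, n = 3 per group) on the log2 scale. The format was tested the same way, two-colour 1X against one-colour 1X. The formats were also on different slides and processed differently, so format, slide and processing cannot be told apart here. None of the 4 member probes passed (limma, adjusted p 0.998 for each, 0 at an unadjusted p under 0.05), against 0.0199% of all probes, of which 4.76% had an unadjusted p under 0.05. From one-colour to two-colour arrays the log2 difference of Cdkn2c changed by -0.32 ± 0.37 (SE, n = 3 per group), and that of Cdk4 by 0.05 ± 0.22.

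The genes around the G1 members were taken from 6 lists. A listed gene could enter the test through the exposed group alone. Counts and medians of these lists are therefore not read against those of all probes. Of 5 other CDK inhibitors, only Cdkn1a (p21) could be tested over both one-colour inputs, at a log2 difference of 0.27 and an adjusted p (limma) of 0.801. Of 13 pocket proteins and E2F or DP factors, 7 were tested and 0 passed over both one-colour inputs, with a median of 0.04 beside -0.03 over all probes tested. With two-colour 1X arrays 1 of 3 passed, against 6.43% of all probes: Tfdp1, the partner that E2F factors need to bind DNA, was higher by 0.35 ± 0.08 (SE, n = 3 per group) with an adjusted p (limma) of 0.0431. That call was lost with the mice of the source names (adjusted p 0.195) and in each of the 6 limma fits that left out 1 mouse (0.0594 to 0.118).

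Among CDK2, its partners and activators, 1 of 5 genes tested rose over both one-colour inputs, against 0.749% called among all probes tested. Of the 5, 3 were higher and 2 lower, with a median of 0.27 beside -0.03 over all probes tested. This was Cks1b, a small adaptor that helps the ubiquitin ligase SCF-SKP2 to mark p27 for degradation. It read 0.420, 0.442 and 0.394 in control mice and 0.904, 0.838 and 0.814 in exposed mice. All 3 exposed mice lay above the controls, at a log2 difference of 1.03 ± 0.14 (SE, n = 3 per group) with an adjusted p (limma) of 0.0254. The two-colour 1X set gave a rise of 0.60 ± 0.08 with an adjusted p (limma) of 0.00565. Of the 6 one-colour fits that left out 1 mouse, only that without exposed mouse 1 kept the call, with adjusted p-values (limma) from 0.0496 to 0.133.

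Of 18 E2F target genes of S phase entry, 8 were tested over both one-colour inputs, all 8 were higher in exposed livers, and 1 passed, against 0.749% called among all probes tested. The median log2 difference of these 8 was 0.72, beside -0.03 over all probes tested. A gene could enter the test through the exposed group alone, so this median is not read against that of all probes. In the single one-colour sets 11 of 11 tested were higher at 1X and 8 of 9 at 1.5X. In the two-colour 1.5X set the 1 gene tested was lower, at a log2 difference of -0.44 without overlap. Over both one-colour inputs Mcm6, a subunit of the replicative helicase, read 0.704, 0.958 and 0.785 in control and 2.46, 1.60 and 2.14 in exposed mice, without overlap. Its log2 difference was 1.33 ± 0.21 (SE, n = 3 per group) with an adjusted p (limma) of 0.0427, and in none of the 6 fits without 1 mouse did it stay past the threshold (0.0683 to 0.162). Of 3 tested on two-colour 1X arrays 2 passed, against 6.43% of all probes called in either direction and 3.28% called higher: Mcm6 at 1.06 ± 0.11 and Mcm7, of the same helicase, at 0.55 ± 0.07. Over both one-colour inputs Mcm7 differed by 0.78 with an adjusted p (limma) of 0.0862.

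Of 10 partners and antagonists of MYC, 5 were tested over both one-colour inputs and 0 passed, with a median of -0.09. The 2 with the largest change were Mga at -0.68 and Mnt at 0.40, with adjusted p-values (limma) of 0.218 and 0.519. Of 12 MYC target genes of growth, 10 were tested and 0 passed, 5 higher and 5 lower, with a median of 0.01. Of 6 tested on two-colour 1X arrays 1 passed, against 6.43% of all probes: Srm (spermidine synthase), at 0.33 ± 0.08 (SE, n = 3 per group) with an adjusted p (limma) of 0.0386. It too was lost with the source names (adjusted p 0.180) and in all 6 limma fits without 1 mouse (0.0507 to 0.140). The values of a list in the one-colour and two-colour sets come from the same 6 livers.

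**Figure D5:**
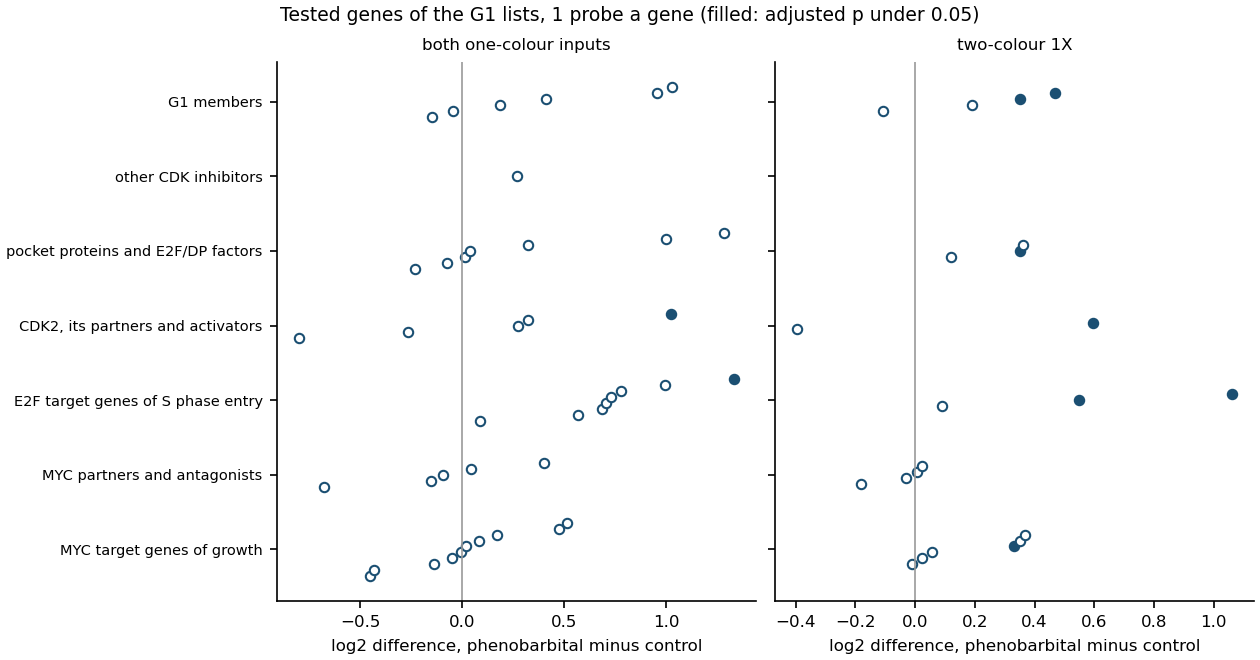
Log2 difference (phenobarbital minus control) of each tested gene of the G1 members and of 6 neighbouring lists, 1 probe a gene, over both one-colour inputs (left) and in the two-colour 1X set (right); filled points have an adjusted p under 0.05. All 8 tested E2F targets lie right of 0 in the left panel, while MYC targets spread to both sides; the horizontal axes of the panels differ.

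Likeness to Ccnd1 was described by Pearson's r across the 6 mice, over both one-colour inputs, among 10325 candidate probes of other named genes. The 5 highest were Hsd17b2 (0.989), Cyp2c29 (0.985), Etnk2 (0.978), Lpgat1 (0.972) and Dact2 (0.971). Their two-colour 1X r with Ccnd1 was 0.932, 0.954, 0.843, 0.951 and 0.501. The points share livers and the exposure groups, so these r describe the contrast of the groups together with the order of mice within them, and they are the highest of 10325 r over 6 points. The same rule for Myc gave Lsm3, Fyb2, Tmem62, Cnst and Hacd2, at r from 0.967 to 0.992 with readings of Myc that were mostly below background; in the two-colour 1X set those r lay between 0.119 and 0.720.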

How the data were processed

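Per the file headers, the authors read all 28 arrays with version 11.0.1.1 of Agilent's Feature Extraction. Their deposited scanner files hold an intensity per spot, background-subtracted and, for 2 colours, dye-normalized, and spot flags (other), per the file headers. The deposited series matrix holds the same intensity for one-colour arrays and the log10 ratio for two-colour arrays, turned on some arrays to phenobarbital over control.

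One-colour values were log2 intensity minus the array's 75th percentile over probes detected throughout the set. Two-colour signals were turned into background-corrected (normexp, offset 50), loess- (span 0.3) and Aquantile-normalized medians, averaged over both dyes of a mouse. The offset compresses differences of dim probes. Two-colour 1X arrays 4 and 8 went into no comparison, since their labels give each exposure opposite dyes. A probe was tested when well above background on every array (or channel) of at least 1 group. limma 3.58.1 in R 4.3.3 compared 3 with 3 mice per set, with Benjamini-Hochberg adjustment over all probes tested and a threshold of 0.05. P-values measure the spread between these 6 livers, and the small number of arrays limits their precision. On simulated data with log2 changes of 1, the fits found 48% over both one-colour inputs, 16% at 1X, 20% at 1.5X and 100% in the two-colour 1X set.

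Probes were named through the RefSeq table of GRCm38.p6, which named 27235 of 55681. All member probes are reported; of other lists, genes past the threshold over both one-colour inputs or in the two-colour 1X set, otherwise the 2 with the largest change; for likeness, the 5 highest r. Other genes are given by their brightest probe. Members, lists and tests were chosen with earlier results of these data known. Alternatives were other normalizations, filters, single dyes, blocks, label readings and leaving out mice. Skp2, Cd68, Ly6g and Hbb-b1 matched no probe here. Figures used matplotlib and Python, with versions recorded beside the results.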

Additional observations from a re-analysis of the deposited data

How the results depend on the processing

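Both the counts of probes past the threshold and the member calls moved with the processing. Over both one-colour inputs 122 probes passed; there were 28 when dim probes were kept, 222 after normexp with quantile scaling, 483 (and 1 member, Ccnd1) with all 12 arrays and the mouse as a random block, and 21 (without exposed mouse 2) to 157 (without exposed mouse 1) when 1 mouse was left out. At 1X the 34 became 5, 56, 9 with the slide row as a block, and 6 (without control mouse 1) to 22 (without exposed mouse 1). At 1.5X the 44 became 8, 185 (with 1 member, Cdkn2c), 16, and 8 (without exposed mouse 3) to 148 (without exposed mouse 1). In the two-colour 1X set the 645 became 159 in Cy3 alone, 37 in Cy5 alone, 122 with the mice of the source names, 175 in Cy3 with a filter on Cy3 flags, and 263 (without control mouse 3) to 770 (without exposed mouse 3). Its 2 member calls became 1 with Feature Extraction's own signals, 0 in each of the other 4 alternatives just named, and 0 to 1 without 1 mouse. In the two-colour 1.5X set, 0 became 3 in Cy3 alone and 22 with the Cy3 filter, which was chosen after seeing the data. The format difference called 2, and 0 to 2 without 1 mouse.

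The labels do not say whether same-numbered control and exposed mice are paired. Correlations of same-numbered mice were 0.05, -0.10 and 0.25 over both one-colour inputs, where the highest of the other pairs was 0.22. In the two-colour 1X set they were 0.285, -0.043 and 0.373, where the highest of the other pairs was 0.276. There, by the descriptions, same-numbered mice also shared arrays, those numbered 3 on both of theirs, as did some other pairs. Shared arrays and pairing cannot be told apart in those correlations, and the two-colour fits had no term for the array. The correlations do not settle whether the numbers pair the mice. With the replicate block, calls were 58 over both inputs, 3 at 1X, 3 at 1.5X, 1 for the format difference, and 952 (with 1 member) on two-colour 1X arrays.

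Some signs turned. Cdkn1b at 1X was 0.061 with normexp. Without 1 mouse, log2 differences over both inputs ran from -0.28 to 0.077 for Ccnd2, -0.27 to 0.14 for the dimmer Ccnd3 probe and -0.16 to 0.57 for Cdkn1a. At 1X they ran from -0.012 to 0.49 and -0.086 to 0.18 for the Ccnd3 probes and -0.10 to 0.11 for Cdkn1b. The input difference of Ccnd1 ran from -0.27 to 0.23, and format differences from -0.0081 to 0.27 (Ccnd3), -0.066 to 0.26 (Cdk4) and -0.68 to 0.016 (Cdkn2c). The cause was not tested. Of the tested members' results under all alternatives, 423 kept direction and side of the threshold and 16 turned. A call was lost in 19 and gained in 2, and 2 values that have no test moved in size. Low signal over background limits Myc, Ccne1, Ccne2 and Cdk6.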

Other observations

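Two-colour 1X arrays 4 and 8 were placed in no group, since their description puts each exposure in the dye that the labels of the channels give to the other. The deposited log10 ratios were turned on every assigned array with control in Cy5 and on no other assigned array. Array 4 was not turned and array 8 was, which follows the channel labels and not the description. The mouse numbers behind the member calls come from such descriptions, and the turning does not bear on those numbers. On array 4 the log2 ratio of Cy5 over Cy3 was 1.05 for Cdkn2c, 1.16 for Ccnd1, 0.21 for the brightest Cdk4 probe, 0.24 for the brighter Ccnd3 probe and -0.45 for Cdkn1b. On array 8 the same ratios were -0.41 for Cdkn2c, -2.41 for Ccnd1, -0.22 for Cdk4, 0.03 for Ccnd3 and 0.34 for Cdkn1b. Ccnd1 was well above background in Cy3 only on both arrays, and the other 4 probes in both channels.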
